A study of Mus musculus with 2 samples.

Results

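Mammalian genomes carry 3 related loci at which a gene of the miR-99 or miR-100 type, a let-7 gene and a miR-125 gene follow each other on 1 strand. The 8 genes described here are Mir100, Mirlet7a-2 and Mir125b-1 on chromosome 9, Mir99a, Mirlet7c-1 and Mir125b-2 on chromosome 16, and Mir99b and Mir125a on chromosome 17. They were chosen by gene symbol from 2202 annotated miRNA genes, and all 8 had at least 10 counts in each library, the limit used here for a detected gene, as did 358 genes in all. Mirlet7e, the let-7 gene of the chromosome 17 locus, is not on that list of 8 and is described beside it, so that each locus is complete with 3 genes.

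The study sequenced the microRNAs of adrenal glands from female mice of 14 days, of the strain B6CASTF1/J, an F1 hybrid of C57BL/6J and CAST/EiJ. There was 1 group of 2 libraries, biological replicates 1 and 2, and no treatment or second genotype, so the data hold no contrast between conditions. By its label replicate 1 came from 3 females, whereas replicate 2 is labelled with 1 numbered female, under the same donor name, so it is not given whether the replicates differ by animal alone. Replicate 1 held 3797107 counts on miRNA genes and replicate 2 held 5034257. A count is 1 read assigned to a precursor gene, and levels are given as CPM, the counts of a gene scaled to a library total of 1000000 miRNA counts. The tables hold miRNA genes only, so the messenger RNAs that define adrenal cells were not measured.

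The counts of the libraries were compared to see whether 1 library had been deposited under both labels. They did not agree within sampling noise, with a chi-square per degree of freedom of 2915 over 423 genes and of 773 over 426 genes without Mir122, and were kept as 2 samples. Replicate 2 stands apart in Mir122, a miRNA gene of hepatocytes, which took 0.290% of the counts in replicate 1 and 21.5% in replicate 2. A share of that size lowers the CPM of every other gene in replicate 2, so CPM with Mir122 left out of the totals is given beside the levels. The log2 ratios used further on are scaled over many genes, and leaving out Mir122 did not change those of the 9 genes to 2 decimals.

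MicroRNAs are cut from hairpin precursors and guide Argonaute proteins to messenger RNAs, mainly through the seed at bases 2 to 8 of the mature strand. The miR-125 genes are the vertebrate relatives of lin-4, which together with let-7 sets the timing of larval development in the nematode, and let-7 and miR-125 both repress Lin28 and other growth genes. The miR-99 and miR-100 family is known for repressing Mtor and Igf1r, also in tumours of the adrenal cortex, and miR-125a and miR-125b have been studied in steroid-producing cells as repressors of Scarb1, the receptor that takes up cholesterol from lipoproteins.

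The mature sequences of the main 5′ arms are shown because they define which genes share a seed and which genes short reads can tell apart. They are from RefSeq on build GRCm38.p6, with all 9 genes matched, and are written 5′ to 3′ with the seed in capitals.
miR-99a-5p: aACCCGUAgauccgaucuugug
miR-100-5p: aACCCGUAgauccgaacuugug
miR-99b-5p: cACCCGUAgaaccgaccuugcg
miR-125a-5p: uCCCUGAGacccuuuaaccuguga
miR-125b-5p: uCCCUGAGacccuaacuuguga
let-7c-5p: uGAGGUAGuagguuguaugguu
let-7e-5p: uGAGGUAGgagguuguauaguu
let-7a-5p: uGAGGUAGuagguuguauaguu

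The first genes of the 3 loci share 1 seed, the middle genes another, and the last genes again another. With positions counted from 1 at the 5′ end, miR-100-5p differs from miR-99a-5p by the single substitution U16A, outside the seed. From miR-99a-5p to miR-99b-5p there are 4 substitutions, A1C, U11A, U16C and U21C, again all outside the seed. The miR-125a-5p and miR-125b-5p strands share their first 13 bases. Between let-7c-5p and let-7e-5p there are 2 substitutions, U9G and G19A. The 5′ arms of miR-99a, miR-99b, miR-100, miR-125a and let-7e each occur in 1 annotated precursor.

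The other 4 genes have a main arm that a second precursor also holds. The miR-125b-5p strand occurs letter for letter in Mir125b-1 and Mir125b-2, let-7c-5p in Mirlet7c-1 and Mirlet7c-2, and let-7a-5p in Mirlet7a-1 and Mirlet7a-2. Reads that mapped to several places made up 28.0% of replicate 1 and 25.0% of replicate 2 and were set aside in the authors' counting. Counts of these 4 genes are therefore uncertain, and a low count does not show that the mature strand is scarce. The 3′ arms differ between the copies and are shown for the pair of miR-125b genes, where 5 edits separate them.
miR-125b-1-3p: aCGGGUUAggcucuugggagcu
miR-125b-2-3p: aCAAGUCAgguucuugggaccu
The tables give 1 count per precursor, so the arm that a count came from is not known. A read of only a shared 5′ arm fits 2 precursors and would be among those set aside. Counts of these 4 genes can thus come largely from 3′ arms or longer reads, and do not measure the shared arm.

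All 9 genes lie on the plus strand of build mm10, by the coordinates of GENCODE M21. Mir100 (ENSMUSG00000093011.1) lies on chromosome 9 from 41531425 to 41531504, Mirlet7a-2 from 41536716 to 41536811 and Mir125b-1 from 41581926 to 41582002. These 3 are in introns of the long noncoding RNA gene 3110039I08Rik, which RefSeq calls Mir100hg, and Mir125b-1 also overlaps an exon of Gm28119. Mir99a (ENSMUSG00000065530.1) lies on chromosome 16 from 77598936 to 77599000, Mirlet7c-1 from 77599657 to 77599750 and Mir125b-2 from 77646273 to 77646343, all in introns of Mir99ahg. Mir99b (ENSMUSG00000065396.1) lies on chromosome 17 from 17830188 to 17830257 and Mirlet7e from 17830352 to 17830444, both in introns of the sperm acrosome gene Spaca6. Mir125a (ENSMUSG00000065479.2), from 17830812 to 17830879, overlaps an exon of Spaca6. Mir125b-2 also overlaps an exon of C130023A14Rik, and Mir100 an exon of Gm48742, a gene on the minus strand.

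The loci differ in length far more than in order. The chromosome 17 genes fit into 692 bases, with gaps of 94 and 367 bases. On chromosome 9 the genes span 50578 bases, with gaps of 5211 and 45114 bases, and on chromosome 16 they span 47408 bases, with gaps of 656 and 46522 bases. Thus the miR-125b genes stand far downstream of their neighbours, while Mir125a does not.

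**Figure D1:**
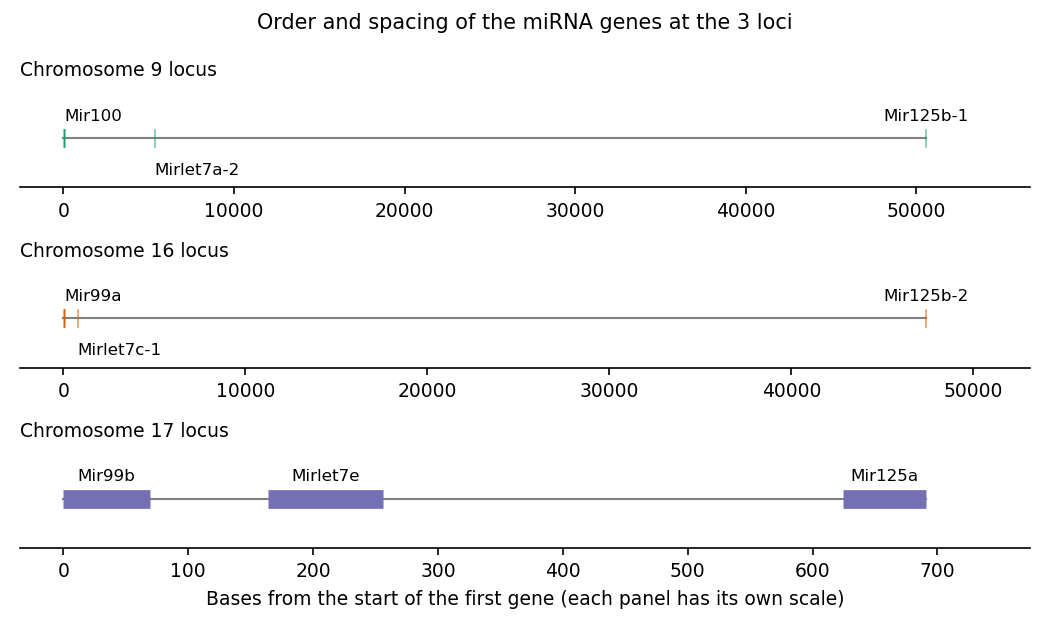
Map of the 3 loci, with bases from the start of the first gene on the horizontal axis and a separate scale for each panel. Coloured blocks are the annotated precursors. The chromosome 17 genes span 692 bases, against 50578 on chromosome 9 and 47408 on chromosome 16.

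Together the 9 genes held 3.45% of all miRNA counts in replicate 1 and 3.12% in replicate 2, a mean of 3.29% ± 0.233 (SD, n = 2), and the 8 listed genes 2.57% ± 0.159. With Mir122 left out of the totals, the 9 genes held 3.46% and 3.98%, so the order of the libraries turned. In RNA from a whole gland, fewer cells of a type and less RNA per cell cannot be told apart. Counts carry no molecular identifiers, so intervals cover counting error only.

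Mir99a, the first gene on chromosome 16, was the most abundant of the 9 in both libraries. It had 61984 counts in replicate 1 and 40938 in replicate 2, that is 16324 and 8132 CPM. Its share of the miRNA counts, with a Wilson 95% interval, was 1.63% (1.62 to 1.65) and 0.813% (0.805 to 0.821), and its rank among all miRNA genes was 15 and 22. With Mir122 left out it had 16371 and 10353 CPM, so replicate 1 remained the higher.

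Mir99b, the first gene on chromosome 17, had 12050 counts in replicate 1 and 35863 in replicate 2, or 3173 and 7124 CPM. With Mir122 left out it had 3183 and 9070 CPM, and it ranked 41 and 23. Mir100, the first gene on chromosome 9, had 12968 and 11013 counts, or 3415 and 2188 CPM, and 3425 and 2785 without Mir122. In replicate 1 Mir99b stood at about the level of Mir100, with 0.929 counts per count of Mir100, whereas in replicate 2 it had 3.26.

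The 3 genes with the miR-99 and miR-100 seed summed to 87002 counts in replicate 1 and 87814 in replicate 2, or 22913 and 17443 CPM, and 22979 and 22208 without Mir122. The sum was thus close in counts while its make-up was not. Mir99a supplied 71.2% of it in replicate 1 (70.9 to 71.5 by the Wilson method) and 46.6% in replicate 2 (46.3 to 46.9). Mir99b supplied 13.9% (13.6 to 14.1) and 40.8% (40.5 to 41.2), and Mir100 14.9% (14.7 to 15.1) and 12.5% (12.3 to 12.8). A single substitution in the mature strand separates the more and the less abundant of Mir99a and Mir100, which differed 4.78-fold in replicate 1 and 3.72-fold in replicate 2.

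Mirlet7e, in the middle of the chromosome 17 locus, had 29318 and 33609 counts, or 7721 and 6676 CPM, and ranked 26 and 25. With Mir122 left out it had 7744 and 8500 CPM, so which library was the higher turned with the totals. Its SD of 739 CPM around a mean of 7199 was smaller than those of its neighbours. Gm25927, a miRNA gene annotated on the minus strand, covers the same bases and had 0 counts on its own strand in either library, while 29318 and 33609 counts lay on the strand of Mirlet7e. In the column counted without regard to strand both genes are at 0. The let-7 genes of the other loci were far lower. Mirlet7c-1 had 1216 and 1647 counts, or 320.2 and 327 CPM, and Mirlet7a-2 had 452 and 616 counts, or 119 and 122.4 CPM. Without Mir122 in the totals, Mirlet7c-1 had 321 and 417 CPM and Mirlet7a-2 119 and 156 CPM. Both hold a main arm that a second precursor also holds, so these counts can be too low.

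Mir125a, the last gene on chromosome 17, had 11165 counts in replicate 1 and 31771 in replicate 2, or 2940 and 6311 CPM, and 2949 and 8035 without Mir122. Mir125b-1 had 860 and 1257 counts, or 226 and 249.7 CPM, and Mir125b-2 had 1114 and 552 counts, or 293 and 109.6 CPM. In totals without Mir122, Mir125b-1 had 227 and 318 CPM and Mir125b-2 had 294 and 139.6 CPM. In these counts, from which reads of only the shared miR-125b-5p strand would be set aside, the copies changed places. Mir125b-2 was the higher in replicate 1 and Mir125b-1 in replicate 2. Of the counts on these 3 genes, Mir125a took 85.0% in replicate 1 (84.4 to 85.6) and 94.6% in replicate 2 (94.4 to 94.8). With reads of the shared miR-125b-5p strand among those set aside, these shares do not rank miR-125a against miR-125b as mature molecules.

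**Figure D2:**
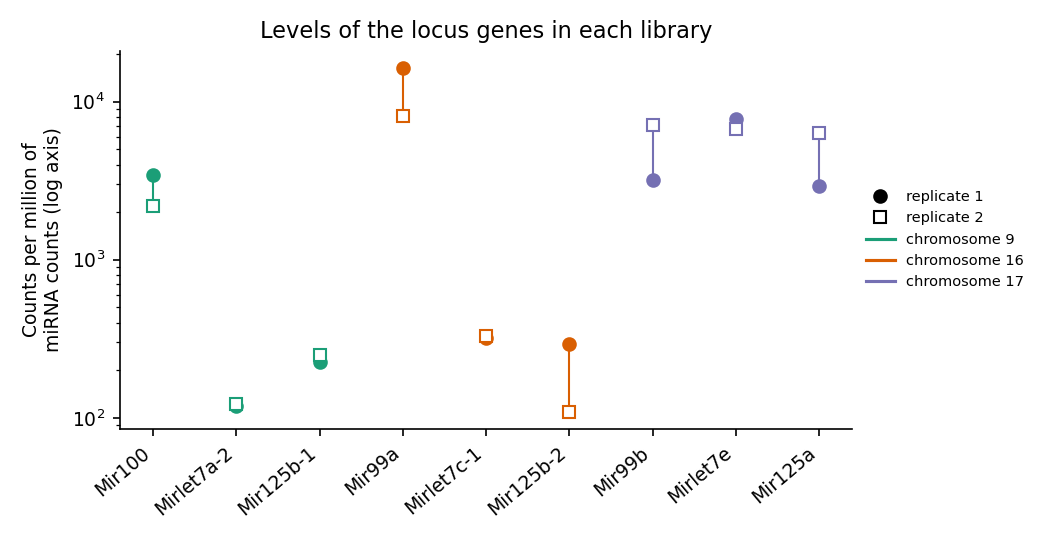
Level of each gene in CPM on a log axis, with a filled circle for replicate 1 and an open square for replicate 2, coloured by chromosome. Mir99b and Mir125a lie higher in replicate 2 and Mir99a, Mir100, Mir125b-2 and, slightly, Mirlet7e lie lower. Mirlet7c-1, Mirlet7a-2 and Mir125b-1 lie slightly higher. Mir122 is in the totals and lowers the CPM of every other gene in replicate 2. Without it Mirlet7e is the higher in replicate 2.

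In order of mean CPM the genes stood as Mir99a, Mirlet7e, Mir99b, Mir125a, Mir100, Mirlet7c-1, Mir125b-1, Mir125b-2 and Mirlet7a-2. The means ran from 12228 ± 5793 CPM for Mir99a to 121 ± 2.35 for Mirlet7a-2 (SD, n = 2). With Mir122 left out of the totals they were 13362 ± 4256 for Mir99a and 138 ± 25.7 for Mirlet7a-2, so the SDs depend on the totals. Mir99a lay above Mirlet7e in both libraries, with ranges that did not overlap. The ranges of Mirlet7e and Mir99b, Mir99b and Mir125a, and Mir125a and Mir100 overlapped. Mir99b nevertheless lay above Mir125a within each library, whereas the other 2 of these pairs stood in opposite order in the libraries. Between Mir100 and Mirlet7c-1 there was a gap of 8.65-fold in the means. Below it, Mirlet7c-1 and Mir125b-1 did not overlap, while Mir125b-1 and Mir125b-2, and Mir125b-2 and Mirlet7a-2, did. The 4 lowest genes are the same 4 whose main arm has a second precursor. A read covers a whole mature strand whatever the length of its precursor, and with CPM divided by precursor length, per 100 bases, the order of the 9 genes was unchanged.

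Summed over 3 genes, the chromosome 9 locus was the lowest in both libraries, and the order of the other loci differed between them. The chromosome 9 locus had 3761 CPM in replicate 1 and 2560 in replicate 2, a mean of 3160 ± 849 (SD, n = 2). The chromosome 16 locus had 16938 and 8569 CPM, a mean of 12753 ± 5918. The chromosome 17 locus had 13835 and 20111 CPM, a mean of 16973 ± 4438. Within a library these sums share 1 total, so their ratios do not depend on Mir122 or on scaling. The ratios do depend on the counting. The let-7 and miR-125 genes on chromosomes 9 and 16 have a main arm in 2 precursors, and no gene on chromosome 17 does. Reads set aside as mapping to several places can thus lower those sums more than that of chromosome 17. The sums without Mir122 were 3772 and 3259 CPM on chromosome 9, 16987 and 10909 on chromosome 16 and 13875 and 25604 on chromosome 17.

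The chromosome 16 locus exceeded the chromosome 9 locus 4.50-fold in replicate 1 and 3.35-fold in replicate 2. The chromosome 17 locus exceeded the chromosome 9 locus 3.68-fold and 7.86-fold. Both ratios were above 1 in both libraries, in counts that leave out the reads set aside. How far those reads would change the ratios was not tested. The chromosome 16 locus was 1.22 times the chromosome 17 locus in replicate 1 and 0.426 times in replicate 2, and the mean log2 ratio of -0.47 ± 1.08 (SD, n = 2) does not separate them. On the 8 listed genes, without Mirlet7e, the chromosome 17 locus had 6114 and 13435 CPM. With 2 libraries no permutation test of these ratios can pass 0.05, and none was made.

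The share of each gene in its own locus showed 2 patterns. On chromosomes 9 and 16 the first gene held nearly all counts. Mir99a held 96.4% of its locus in replicate 1 (96.2 to 96.5) and 94.9% in replicate 2 (94.7 to 95.1), and Mir100 held 90.8% (90.3 to 91.3) and 85.5% (84.8 to 86.1). On chromosome 17 the counts were spread over the 3 genes. Mirlet7e held 55.8% of that locus in replicate 1 (55.4 to 56.2) and 33.2% in replicate 2 (32.9 to 33.5), Mir99b 22.9% and 35.4%, and Mir125a 21.3% and 31.4%. All 3 genes of the chromosome 17 locus have a main arm with 1 precursor, as do Mir99a and Mir100. The let-7 and miR-125 genes of the other loci have a main arm in 2. How far that sets the difference between the patterns was not tested.

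**Figure D3:**
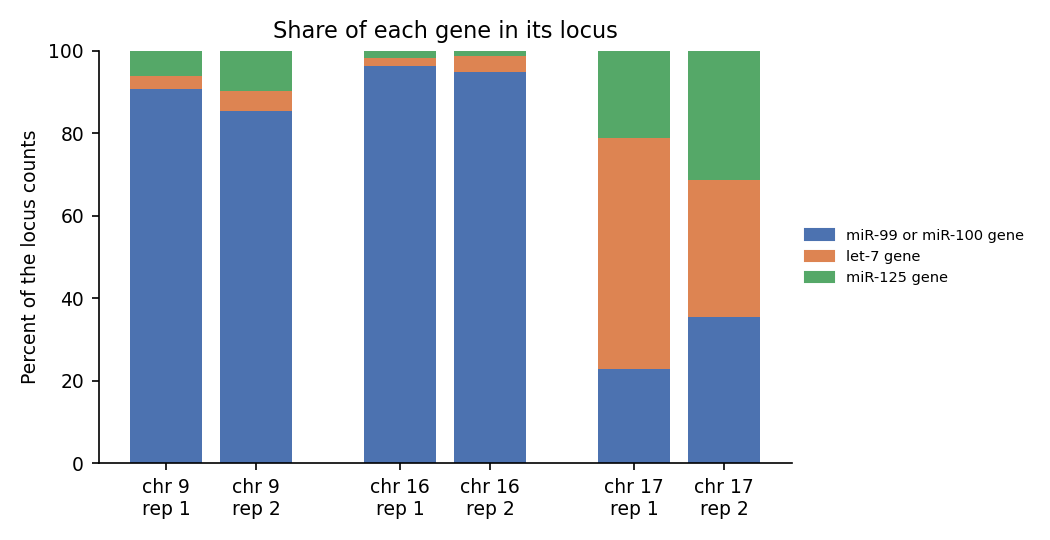
Share of each gene in the counts of its locus, in percent, with 1 bar for each locus and library. The first gene takes 85.5% to 96.4% on chromosomes 9 and 16, and on chromosome 17 the let-7 gene takes 55.8% in replicate 1 and 33.2% in replicate 2.

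The libraries were set side by side as the log2 ratio of replicate 2 over replicate 1, scaled by TMM, a trimmed mean over genes. There is 1 library on each side, so the ratio compares libraries and has no test, and its 95% interval, in parentheses, covers counting error. Of the 8 listed genes 2 were at least 2-fold higher in replicate 2 and 0 were at least 2-fold lower. Over all 358 detected genes, 17.9% were at least 2-fold apart, 9.22% higher and 8.66% lower. The 2 genes were Mir99b, 3.02-fold higher or 1.60 on the log2 scale (1.57 to 1.63), and Mir125a, 2.89-fold higher or 1.53 on the log2 scale (1.5004 to 1.5628). By this ratio they ranked 15 and 17 from the top of the 358 genes.

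For Mirlet7e, which lies between these 2 genes, the log2 ratio was 0.22 (0.20 to 0.24). Measured within each library, where no scaling enters, Mir99b had 0.411 counts per count of Mirlet7e in replicate 1 and 1.07 in replicate 2, a 2.60-fold difference. Mir125a had 0.381 and 0.945 counts per count of Mirlet7e, a 2.48-fold difference. Mir99b and Mir125a kept nearly 1 ratio to each other, with 1.079 counts of Mir99b per count of Mir125a in replicate 1 and 1.13 in replicate 2. The outer genes of the chromosome 17 locus thus differed between the libraries by a like factor, and the gene between them did not share it.

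The genes of the other loci were less than 2-fold apart. For Mir99a the log2 ratio was -0.58 (-0.59 to -0.56) and for Mir100 -0.21 (-0.25 to -0.18). Mir125b-2, at -0.99 (-1.14 to -0.84), lay just inside the 2-fold limit. Mir125b-1, Mirlet7a-2 and Mirlet7c-1 had log2 ratios of 0.57, 0.47 and 0.46. With library totals in place of TMM the median of all detected genes moved from -0.06 to -0.49. Under those totals Mirlet7e stood at -0.21, Mir99a at -1.01 and Mir125b-2 at -1.42, so that 2 listed genes were at least 2-fold lower, while Mir99b and Mir125a remained higher at 1.17 and 1.10. The listed genes had a median log2 ratio of 0.46 under TMM, against -0.06 over all detected genes. They ran from -0.99 to 1.60, with Mir99a, Mir100 and Mir125b-2 negative, so the median shows no common shift. It lies between Mirlet7c-1 and Mirlet7a-2, whose counts are uncertain.

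**Figure D4:**
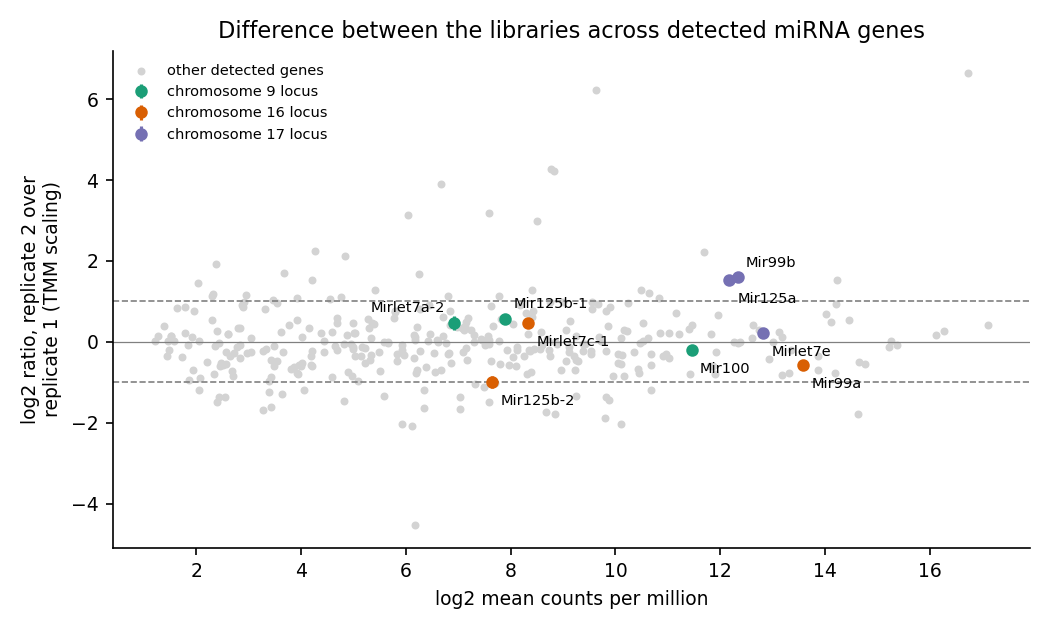
Log2 ratio of replicate 2 over replicate 1 with TMM scaling, against log2 mean CPM, for 358 detected miRNA genes. Coloured points are the 9 locus genes with 95% counting intervals, dashed lines mark 2-fold, and Mir99b and Mir125a lie above the upper line.

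Unequal differences between close neighbours were also seen elsewhere. Among genes with at least 1000 counts in each library, 26 neighbouring pairs lay on 1 strand within 1000 bases, a limit chosen after the values had been seen. In the pair of Mir99b and Mirlet7e the log2 ratios were 1.38 apart, and in the pair of Mirlet7e and Mir125a 1.31, which placed them 5 and 6 among the 26. Mir99a and Mirlet7c-1, also within that distance, were 1.04 apart and at place 10. The 23 pairs outside the 3 loci ranged from 0.0040 to 1.93 with a median of 0.67. The widest were Mir497 with Mir195a, at 1.93, and Mir411 with Mir299a, at 1.80.

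**Figure D5:**
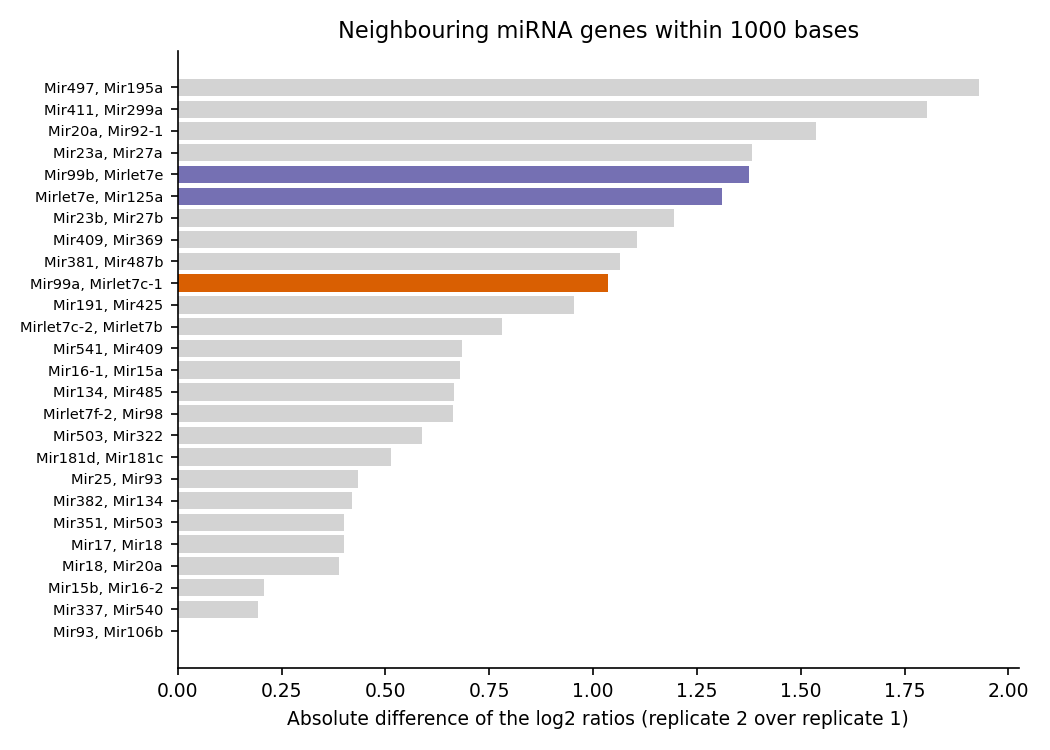
Absolute difference of the log2 ratios (replicate 2 over replicate 1) in 26 pairs of neighbouring miRNA genes within 1000 bases on 1 strand. Coloured bars are pairs of the described loci, at places 5, 6 and 10, and grey bars are the other 23 pairs.

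Markers of other cell types also differed between the libraries. Of 36 genes on 9 marker lists 24 were detected, 9 were at least 2-fold higher in replicate 2 and 3 at least 2-fold lower, beside 9.22% and 8.66% of all detected genes. The 4 hepatocyte genes summed to 3003 CPM in replicate 1 and 215691 in replicate 2, with 3 of the 3 detected higher, and those other than Mir122 to 107 and 1468 CPM in totals without it. The 6 skeletal muscle genes summed to 27.9 and 1554 CPM (28.0 and 1978 without Mir122), nearly all from Mir206, and Mir1a-1, Mir133a-1 and Mir133a-2 were at 0. The 7 kidney and epithelial genes summed to 1590 and 1125 CPM, or 1595 and 1432 without Mir122, with 4 higher and Mir141 lower, at a log2 ratio of -1.48. Mir203 held most of that sum, with 1465 and 749 CPM and a log2 ratio of -0.54. The sum thus does not show the direction of the 4 higher genes, Mir200a, Mir200b, Mir429 and Mir205. The endothelial gene Mir126a stood at 142267 and 140629 CPM, or 142680 and 179040 without Mir122. The smooth muscle pair Mir143 and Mir145a summed to 46450 and 32652 CPM, or 46585 and 41571 without Mir122, while Mir145a alone was higher at a log2 ratio of 1.27.

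Markers of blood cells and of neuroendocrine cells had lower sums in replicate 2, also with Mir122 left out. The 3 leukocyte genes summed to 1908 and 879 CPM, or 1914 and 1120 without Mir122. Among them Mir142 was lower at a log2 ratio of -1.44, while Mir223 and Mir150 had 0.43 and 0.61, so that the median of the list, 0.43, went against its sum. The 3 erythroid genes summed to 2236 and 559.96 CPM, or 2242 and 713 without Mir122, with Mir451a lower at a log2 ratio of -2.03 and Mir144 and Mir486 at -0.37 and -0.12. The 4 neuroendocrine genes, led by Mir375, summed to 38998 and 20169 CPM, or 39111 and 25678 without Mir122. The neuronal list had 0 of 6 genes detected, with Mir9-2 and the 3 Mir124a genes at 0. Several of the genes at 0 are numbered copies whose reads can be set aside as mapping to several places. The part of any of these cell types in the difference of Mir99b and Mir125a was not tested.

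The other let-7 genes were taken as relatives of the middle genes. Of 10 such genes, Mirlet7e among them, 10 were detected and 0 were 2-fold apart either way, beside 17.9% of all detected genes, and their median log2 ratio was 0.14. In so short a list a count of 0 is near that share. They summed to 214329 CPM in replicate 1 and 170239 in replicate 2, and to 214952 and 216737 without Mir122. In these counts Mirlet7g led them at 83706 and 74201 CPM, or 83949 and 94469 without Mir122. Reads of let-7a-5p and let-7c-5p, each held by 2 precursors, can be missing as mapping to several places. The sum of the let-7 genes can thus be too low, and the counts do not rank the mature strands. Mirlet7a-1 and Mirlet7c-2, the second precursors of let-7a-5p and let-7c-5p, lay just under the 2-fold limit with log2 ratios of 0.92 and 0.81, against 0.47 and 0.46 for Mirlet7a-2 and Mirlet7c-1.

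Mir10a and Mir10b, of the Hox clusters, make mature strands that resemble the miR-99 and miR-100 family in sequence, shown here for comparison with the seed in capitals.
miR-10a-5p: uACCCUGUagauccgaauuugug
miR-10b-5p: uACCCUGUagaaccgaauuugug
From miR-100-5p to miR-10a-5p there were 3 edits, yet the seeds differ. Mir10a had 36629 and 18642 CPM with a log2 ratio of -0.54, and Mir10b 20516 and 9450 CPM with -0.69. Without Mir122 the levels were 36736 and 23733 CPM for Mir10a and 20575 and 12032 CPM for Mir10b. In both libraries each stood above Mir99a.

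Outside the loci, the miR-125 seed was found in the mature strands of 3 other genes, Mir351, Mir6367 and Mir6394. The 5′ arm of Mir351, an X-linked gene, shares its first 8 bases with miR-125b-5p.
miR-351-5p: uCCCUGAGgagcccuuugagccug
Mir351 had 8438 and 9735 counts, or 2222 and 1934 CPM (2229 and 2462 without Mir122), and a log2 ratio of 0.23 (0.19 to 0.27). Mir6367 and Mir6394 had 0 counts in both libraries. A count of 0 allows up to 3 counts, or 0.790 CPM in replicate 1 and 0.596 in replicate 2. Of the 2 mature strands of Mir670, 0 held the miR-125 seed at bases 2 to 8. The 6 genes with the seed summed to 5682 CPM in replicate 1 and 8604 in replicate 2 (5699 and 10954 without Mir122), of which Mir125a alone held 2940 and 6311 CPM. Reads of the shared miR-125b-5p strand that were set aside are missing from this sum. It can thus be too low, and the part of Mir125a in it too high.

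For the gene of each locus with the highest mean CPM, the genes most like it were sought by the distance in log2 mean CPM and log2 ratio, over 2 libraries. On chromosome 17 that gene was Mirlet7e by the mean and in replicate 1, while Mir99b was the higher in replicate 2. Nearest to Mir99a were Mir10b, at a distance of 0.31, and Mir335, at 0.32, with 14213 and 6220 CPM (14254 and 7919 without Mir122). Nearest to Mirlet7e were Mir652, at 0.12 with 7103 and 6513 CPM (7123 and 8291 without Mir122), and Mir191, at 0.24. Nearest to Mir100 were Mir27b, at 0.46 with 4757 and 2948 CPM (4771 and 3753 without Mir122), and Mir431, at 0.48. With 2 libraries such a distance describes level and ratio only.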

How the data were processed

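The authors deposited, for each library, whole-number counts for every miRNA gene, not normalized. The deposited text beside the tables names build mm10 and GENCODE M21; aligner and counter: not given in the sources used here. Each table has 4 summary lines and 3 count columns without names. Column 3 was used; from the values it was read as the strand of the gene. The other columns served as checks. Summary lines stayed out of totals: reads on miRNA genes were 35.4% and 45.0% of all reads. Identifiers were matched to GENCODE M21 (2202 of 2202).

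CPM, Wilson 95% intervals and log2 ratios (TMM factors of edgeR 4.0.16 on detected genes, prior count 0.5, Clopper-Pearson counting intervals) were computed with Python 3.11.15, scipy 1.17.1 and R 4.3.3. Of these, the log2 ratio, its counting interval and the fold rule were tested on simulated counts. The simulation held counting error only and used library totals in place of TMM factors. DESeq2 1.42.0 size factors were an alternative. Named genes were the 9 locus genes, the related lists, the nearest genes and the markers. Members and lists were chosen with earlier results of these data known. The replicates may share animals, so SDs measure only the spread between these 2 samples.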

Additional observations from a re-analysis of the deposited data

How the results depend on the processing

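Counted without regard to strand, Mirlet7e was at 0, a miRNA gene being annotated over it on the other strand. The log2 ratio of the chromosome 16 over the chromosome 17 locus then turned from -0.47 to 0.41, that of the chromosome 17 over the chromosome 9 locus was 1.55 in place of 2.43, and the chromosome 9 locus had 4180 CPM. With 1 library left out at a time, the log2 ratio of the chromosome 16 over the chromosome 17 locus ranged from -1.23 without replicate 1 to 0.29 without replicate 2, so its direction rests on replicate 2. With library totals alone, 2 listed genes were at least 2-fold lower, in place of 0, and 27.4% of detected genes were 2-fold apart. With a fold limit of 1.5, 1 listed gene was lower and 39.4% of genes were past the limit. Mir99b and Mir125a were at least 2-fold higher under library totals, DESeq2 size factors, counts without regard to strand, and with Mir122 left out. Counts without regard to strand were the same for both genes, so that setting moved only the scaling. Leaving out Mir122 kept their log2 ratios the same to 2 decimals. Neither setting is thus a separate check of these 2 genes. Count minimums of 1 and 100 lie far below the counts of both genes and could not change their place above 2-fold. Leaving out the 4 genes with a shared main arm kept the direction of each ratio between loci. That setting only removes counts from chromosomes 9 and 16 and restores none of the reads set aside. It therefore cannot show how those reads would change the ratios. Over all results and the alternatives that keep both libraries, 79 kept their direction and stayed within their spread or limit, 35 moved further and 1 reversed. Part of the 79 could not move, such as the ratios between loci with Mir122 left out of the totals. The same holds for the shares within the chromosome 9 and 16 loci counted without regard to strand. The 79 are thus no measure of stability. Leaving out 1 of 2 libraries moves a mean by less than its SD by construction, so those values say nothing about stability. No paired analysis was possible because there is 1 group. Reads set aside as mapping to several places limit the counts of the miR-125b, let-7a and let-7c genes.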
